A study of Mus musculus with 4 samples.

Results

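The genes Extl3, Ski, Zc3h4 and Acin1 carry some of the strongest Deaf1 occupancy found in C2C12, a mouse myoblast cell line that can be made to form muscle fibres. Deaf1 was mapped by chromatin immunoprecipitation and sequencing (ChIP-seq), a method that isolates the DNA fragments bound to a protein with an antibody. The 4 libraries were 2 immunoprecipitations with a Bethyl Laboratories antibody against Deaf1 and 2 input controls without antibody, all from C2C12 cells grown in serum-containing medium, with no treatment or second condition named. The labels describe formaldehyde fixation and also use the word native, which normally means unfixed chromatin, and do not say whether the replicates came from separate cultures. Peak lists of the ChIP libraries (replicates 1 and 2) and 1 combined list of the pair were analysed, and input signal is seen here only in the background values of those lists. With 1 group and no second condition, no comparison between treatments could be made.

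The 4 genes were chosen from these same files, as 4 of the 5 loci with the largest mean fold enrichment over both replicates. Their strength is therefore given as a description and was not tested. The least strong of them, at Acin1, had a mean fold enrichment of 41.1 ± 2.2 (SD, n = 2), and the next region of the list, nearest to an end of Pik3r2, had 40.5 ± 10.5 (SD, n = 2), so the limit of the choice lies within the replicate error. All peaks inside each annotated gene span plus 20 kb on each side were taken. These windows held 55 of 1860 peaks in replicate 1 (2.96%), 83 of 3126 in replicate 2 (2.66%) and 27 of the 1550 regions in the combined list. All of them enter the counts below. No filter on low values was applied.

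Deaf1 is a transcription factor that binds DNA through its SAND domain, and the short word TTCG is the core of the sequences it is known to recognise. The chosen genes serve different processes. Extl3 encodes a glycosyltransferase that acts early in building heparan sulfate chains, Ski a corepressor of SMAD proteins in TGF-beta signalling that is also known for promoting muscle growth, Zc3h4 a zinc finger protein of the restrictor complex that ends early and noncoding transcription, and Acin1 (acinus) an RNA-binding protein of the ASAP complex at spliced messenger RNA. Most of their called peaks were not at gene ends. Deaf1 piled up at 1 dominant summit per gene, and this summit was bordered on one or both sides by a series of small peaks.

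The DNA just before the annotated transcription starts is shown because the peaks fell on it differently at each gene: a summit on the start (Acin1), inside a peak but away from its summit (Zc3h4), and in the gap between peaks (Ski). The stretches are the 250 bases before the start, 5′ to 3′ on the gene's strand, from RefSeq promoter windows of build GRCm38.p6. Of the 4 genes, 3 matched that table (Extl3 did not). Capitals mark TTCG or its reverse complement CGAA, searched on both strands, which do not overlap each other here.
Acin1 main start, chr14:54686966-54687215, minus strand: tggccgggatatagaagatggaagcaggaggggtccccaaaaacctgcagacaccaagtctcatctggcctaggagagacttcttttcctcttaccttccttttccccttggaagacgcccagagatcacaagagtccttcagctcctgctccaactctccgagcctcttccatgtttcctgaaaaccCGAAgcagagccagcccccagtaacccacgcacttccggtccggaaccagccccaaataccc
Acin1 internal start, chr14:54653702-54653951, minus strand: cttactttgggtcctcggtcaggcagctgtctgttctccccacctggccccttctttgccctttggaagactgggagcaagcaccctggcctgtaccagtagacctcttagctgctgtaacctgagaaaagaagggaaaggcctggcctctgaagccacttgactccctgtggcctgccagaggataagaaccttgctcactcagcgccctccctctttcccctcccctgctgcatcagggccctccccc
Zc3h4, chr7:16400946-16401195, plus strand: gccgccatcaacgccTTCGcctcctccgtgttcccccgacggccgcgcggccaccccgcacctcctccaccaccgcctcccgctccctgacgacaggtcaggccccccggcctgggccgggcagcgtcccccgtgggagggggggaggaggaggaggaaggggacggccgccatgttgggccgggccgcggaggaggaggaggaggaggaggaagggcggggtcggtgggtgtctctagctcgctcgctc
Ski, chr4:155222536-155222785, minus strand: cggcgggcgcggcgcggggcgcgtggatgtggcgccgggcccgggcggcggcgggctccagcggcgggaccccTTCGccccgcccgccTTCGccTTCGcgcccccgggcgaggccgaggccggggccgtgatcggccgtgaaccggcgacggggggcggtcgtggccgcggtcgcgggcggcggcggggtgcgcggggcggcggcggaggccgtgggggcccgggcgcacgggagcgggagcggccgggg
The word occurred 1 time before the main Acin1 start, 0 times before the internal Acin1 start, 1 time before the Zc3h4 start and 3 times before the Ski start. Of all 32851 such stretches in the table, 38.7% held it at least 1 time and 3.6% held it 3 times or more. The Ski stretch is very rich in G and C (87.6%, against a median of 52.4% over all stretches) and held 53 CpG pairs, against a median of 6. A match describes these letters and is not evidence of a bound site.

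At Extl3 the main summit lay at chr14 position 65098139 in replicate 1 and 65098157 in replicate 2, 18 bp apart. It stacked 123 ChIP fragments in replicate 1 (102 to 147, an exact Poisson interval at 95%) and 149 in replicate 2 (126 to 175). The fragment number at a summit, its pileup, was recovered from the deposited fold and p of each peak, and intervals cover counting error only. The deposited fold enrichment, which sets the pileup against the background expected at that place, was 44.3 and 48.6. This summit sat deep inside the 97841 bp span of Extl3 (chr14:65052059-65149899), 46080 bp and 46098 bp from the nearer gene end.

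At Ski both replicates placed the main summit on the same base, chr4 position 155223259. The pileup was 113 fragments in replicate 1 (93.1 to 136) and 158 in replicate 2 (134 to 185), with folds of 40.7 and 51.5. The summit lay outside the Ski span (chr4:155154075-155222535), 724 bp upstream of the annotated start. Of the 4 loci it differed most between the replicates, with a pileup ratio of 1.4.

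At Zc3h4 the main summit lay at chr7 position 16399942 in replicate 1 and 16399960 in replicate 2. It held 111 fragments (91.3 to 134) and 144 fragments (121 to 170), with folds of 39.97 and 46.2. The summit was 359 bp and 377 bp inside the lower end of the Zc3h4 span (chr7:16399583-16437696), and 1254 bp and 1236 bp upstream of the start in the promoter table. That later start and the whole 300 bases of its promoter window were nevertheless covered by the main peak in both replicates.

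At Acin1 the main summit fell on the transcription start. Replicate 1 placed it at chr14 position 54686995, 30 bp upstream of the start at 54686965, and replicate 2 at 54686964, 1 bp downstream of it. The pileup was 127 fragments (106 to 151) in replicate 1 and 134 (112 to 159) in replicate 2, with folds of 42.7 and 39.5. Of the 4 loci, only Acin1 had the lower fold in replicate 2. Its pileup ratio between the replicates was 1.06, against 1.21 to 1.4 at the others, and the background was higher in replicate 2 at all 4 summits. In the printed stretch the replicate 1 summit is base 221 and the single CGAA spans bases 189 to 192. A second annotated start, at 54686931, has 4 matches to the word in its 300-base window, and 1.64% of all promoter windows held as many (44.7% held at least 1). Only 1 of these matches lies in the 250 bases before that start, and 38.7% of all such stretches held at least 1. The 300-base window of the main start has 2 matches, and 16.7% of all windows held as many.

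Around these summits the signal broke up into many small peaks, as the map of the 4 windows shows. Flanking peaks, all window peaks other than the main one, numbered 51 in replicate 1 and 79 in replicate 2. Their pileups ran from 11 to 32 fragments in replicate 1 (median 17) and from 11 to 45 in replicate 2 (median 19), and both medians were below those of the whole lists (22 and 23). Relative to the main summit of their own window, they reached from 8.94% to 28.8% in replicate 1 and from 6.96% to 31.2% in replicate 2. No flanking peak came close to a main summit, and their intervals did not overlap those of the main summits. Median flanking widths were 190 bp and 199 bp, against 1861 bp to 3172 bp for the main peaks in replicate 1 and 2786 bp to 5720 bp in replicate 2.

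**Figure D1:**
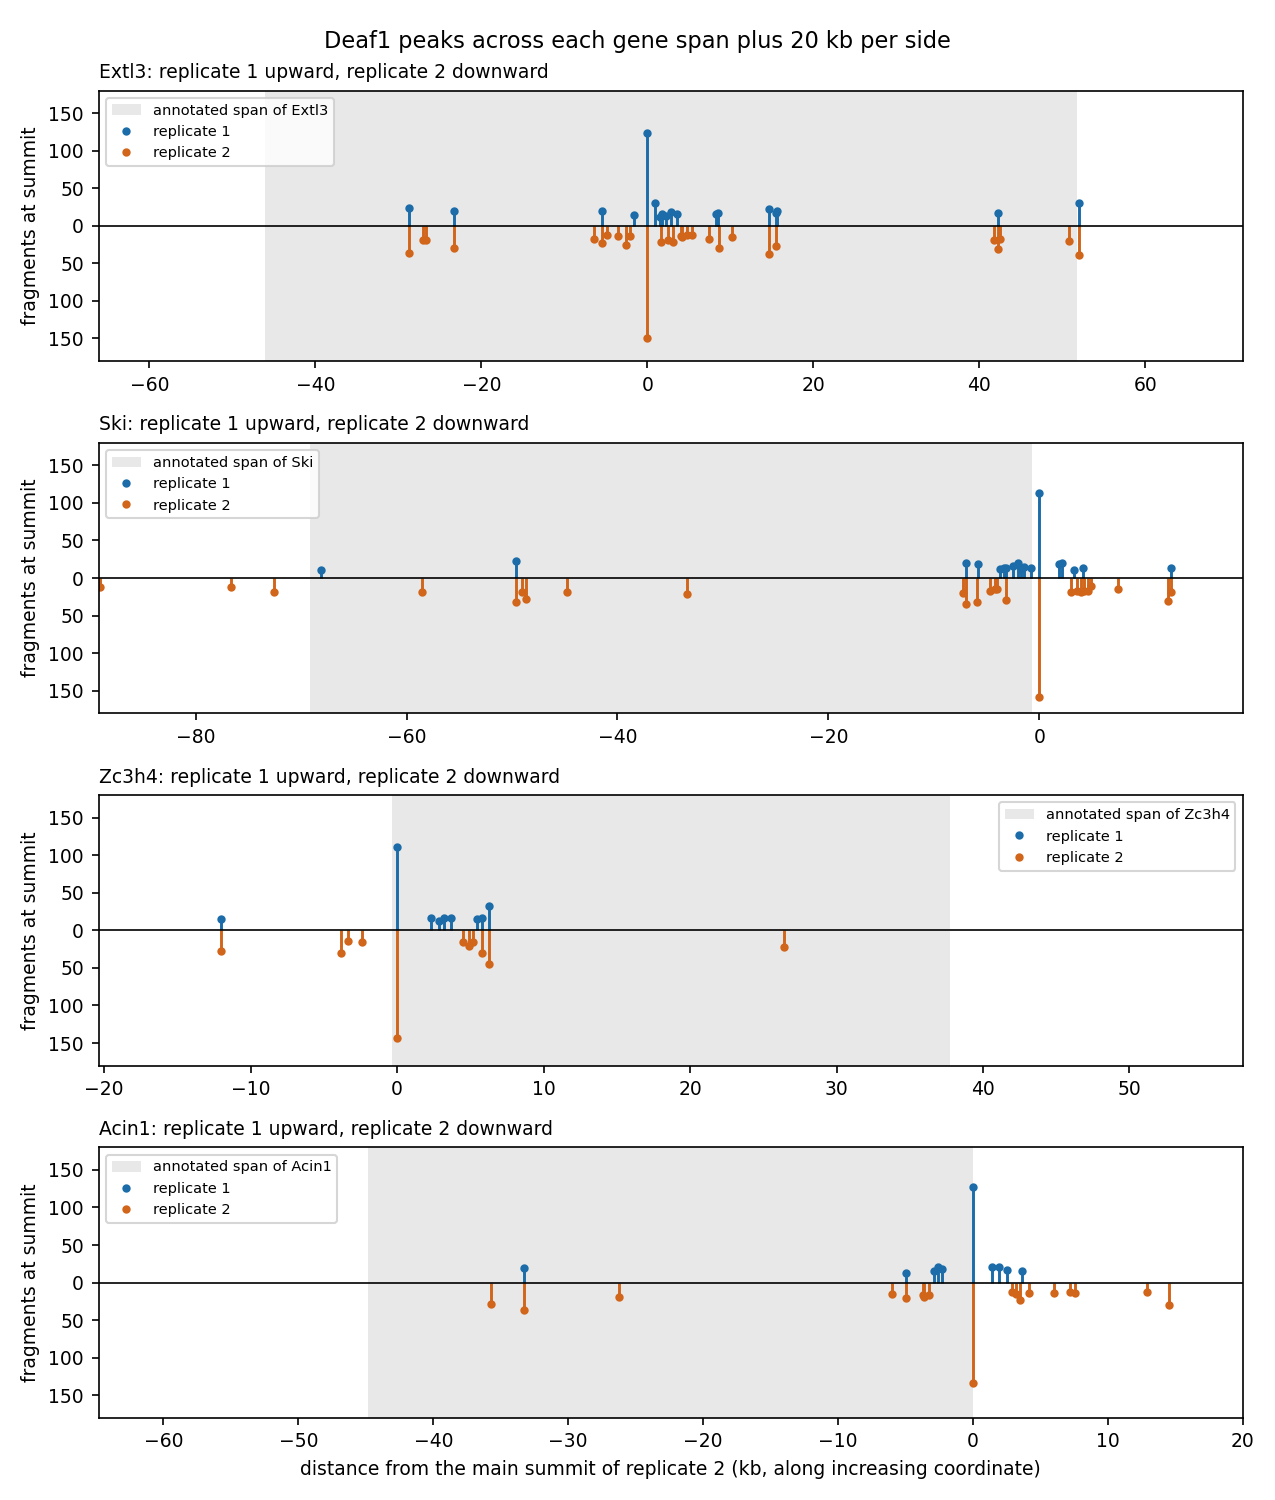
Fragments stacked at each Deaf1 summit (vertical axis, replicate 1 upward and replicate 2 downward) by distance in kb from the main summit of replicate 2, for the 4 gene windows. Grey marks the annotated gene span. A single summit of 111 to 158 fragments stands out in each window, and the flanking summits hold 11 to 45.

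The flanking peaks gathered near the main summit. Within 5 kb of it lay 30 of 51 (58.8%) in replicate 1 and 33 of 79 (41.8%) in replicate 2. Their density was highest from 1 to 2 kb in replicate 1, at 1.12 peaks per kb, and from 2 to 5 kb in replicate 2, at 1.33 peaks per kb. It fell to 0.0631 and 0.101 peaks per kb from 10 to 20 kb. The main peaks themselves occupy the nearest bases and were wider in replicate 2. From 2 kb outward the height of the called flanking peaks did not fall in the same way. Median pileups were 16 fragments at 2 to 5 kb in both replicates, 17 in both at 5 to 10 kb, and 17 and 27 at 10 to 20 kb. Nearer, replicate 1 had medians of 21.5 within 1 kb (2 peaks) and 15 at 1 to 2 kb (9 peaks). Replicate 2 had 1 peak at 1 to 2 kb, with 22 fragments. Signal too weak to be called does not enter these medians.

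Peaks were joined into a run wherever the gap to the next peak was at most 2 kb. In replicate 1 the run around the main summit held 8 peaks at Extl3, 15 at Ski, 8 at Zc3h4 and 9 at Acin1. In replicate 2 the runs held 17, 14, 9 and 13 peaks in the same order. Over the whole lists, 1.71% of 1524 runs in replicate 1 and 2.15% of 2421 in replicate 2 had 5 or more peaks. The windows are known as loci with several peaks, so these numbers describe the choice. Neighbouring summits within a run were a median of 449 bp to 946.5 bp apart over the 8 runs, with single gaps between 62 bp and 4479 bp.

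**Figure D2:**
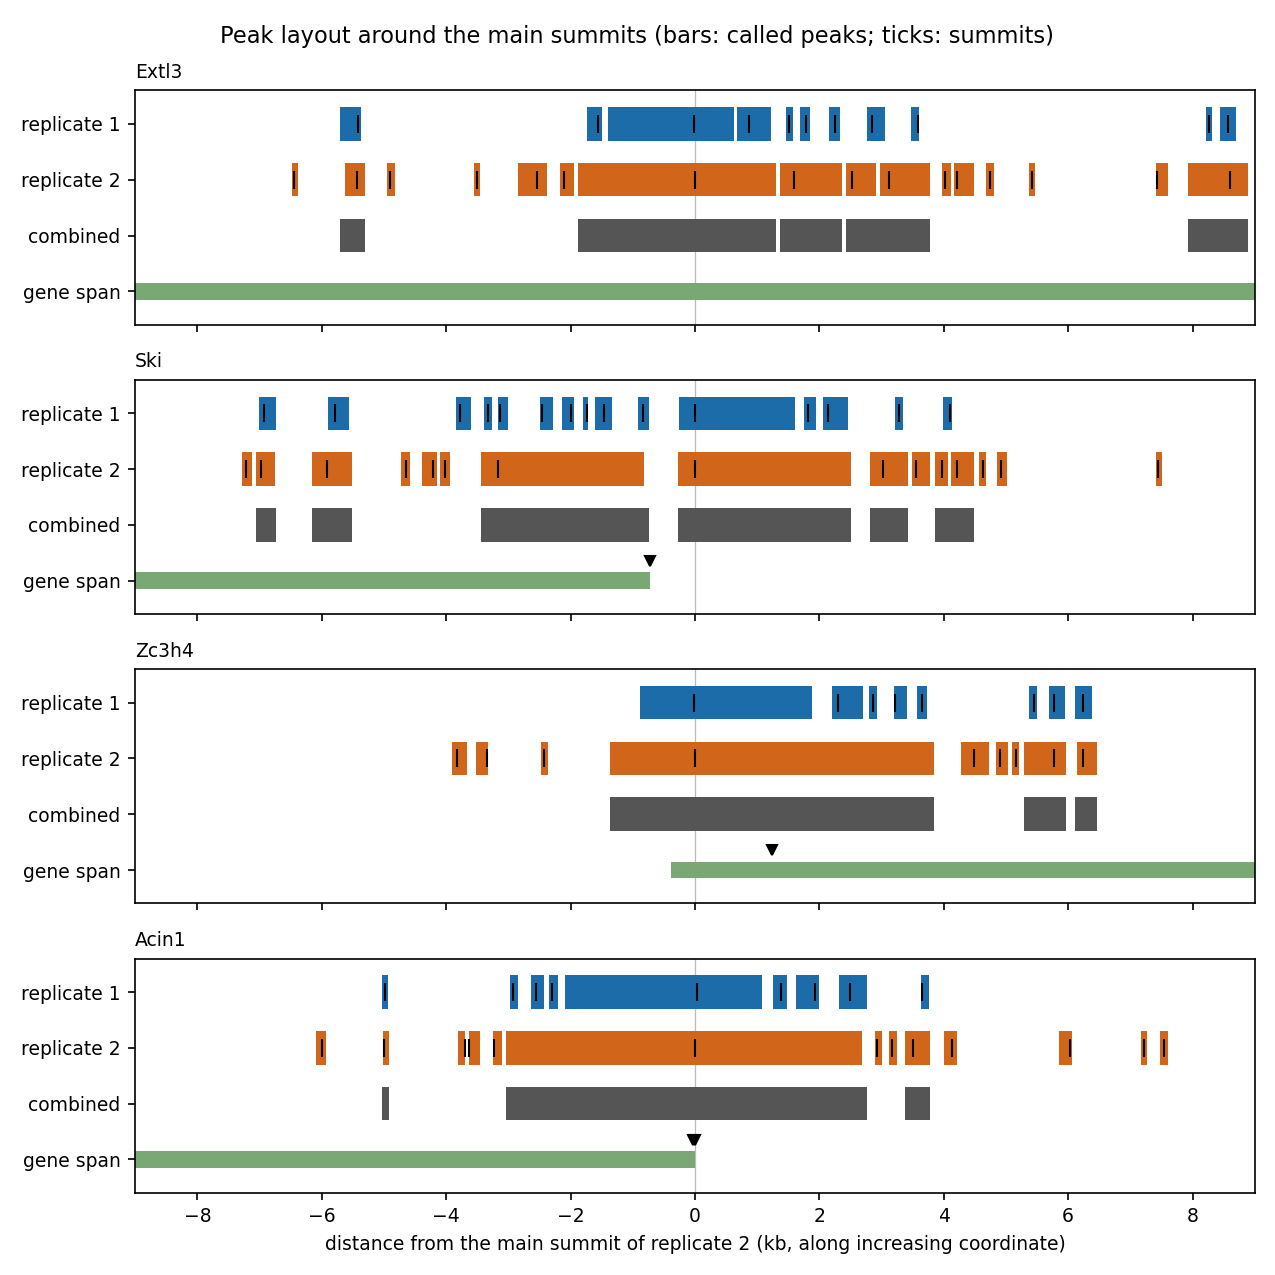
Called peaks (bars) with their summits (ticks) in replicate 1, replicate 2 and the combined list, within 9 kb of the main summit of replicate 2 (horizontal axis, kb). Green bars are gene spans and triangles are annotated starts of the named gene, none being in the table for Extl3. Each main peak of replicate 2 overlaps 3 to 7 separate peaks of replicate 1.

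At Extl3 the run leaned to the right of the main summit in replicate 1 and extended to both sides in replicate 2. It spanned 5333 bp (chr14:65096419-65101751) in replicate 1 and 16661 bp (chr14:65091682-65108342) in replicate 2. The closest neighbour in replicate 1 was a shoulder of 30 fragments (20.2 to 42.8) 890 bp from the main summit. In replicate 2 that shoulder was part of the main peak and had no summit of its own. The run extends across the long noncoding RNA gene Gm52119 (chr14:65099370-65103240) in replicate 2. In replicate 1 the shoulder overlaps the lower end of Gm52119, and all run peaks to the right of the shoulder lie inside that gene.

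Beyond the run, several smaller summits inside Extl3 recurred at nearly the same base. A summit 28668 bp to the left held 24 fragments in replicate 1 (15.4 to 35.7) and 36 in replicate 2 (25.2 to 49.8), 16 bp apart. Another 42301 bp to the right held 17 and 31 fragments, and its summits were 2 bp apart. Its folds were unequal, 3.99 in replicate 1 and 10.4 in replicate 2, over backgrounds of 3.51 and 2.09. The upper end of Extl3 carried its own peak, with 30 fragments (20.2 to 42.8) in replicate 1 and 39 (27.7 to 53.3) in replicate 2. Its summits lay 282 bp and 274 bp outside that end, and it was the highest flanking summit of the window in replicate 2. The only protein-coding gene end within 1 kb of an Extl3 window summit was therefore far from the main summit.

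At Ski the small peaks filled the first part of the gene. Transcription runs to the left here, and replicate 1 had 12 flanking summits to the left of the main one and 5 to the right, replicate 2 having 16 and 9. From 833 bp to 3777 bp downstream of the main summit, replicate 1 had 8 separate peaks of 12 to 20 fragments. Replicate 2 instead had 1 peak of 2614 bp there, with a single summit of 29 fragments (19.4 to 41.6), which overlapped 7 of those 8. The printed stretch before the start fell between this group and the main peak: in replicate 1 the last peak of the group ended at 155222515 and the main peak began at 155223002, and in replicate 2 these positions were 155222439 and 155222984. None of its 250 bases was inside a called peak in either replicate, although it holds 3 TTCG words.

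Farther into Ski the summits were sparse. A summit in the gene body, 49607 bp from the main one in replicate 1, held 23 fragments (14.6 to 34.5) and its partner in replicate 2 held 32 (21.9 to 45.2). A summit 6927 bp downstream held 20 fragments in replicate 1 (12.2 to 30.9) and 35 in replicate 2 (24.4 to 48.7), with folds of 3.89 and 11.7. The larger ratio of folds came with unequal backgrounds, 4.39 fragments in replicate 1 and 2.09 in replicate 2. The 2 flanking peaks of replicate 1 with no overlap in replicate 2 were both at Ski, with 11 and 12 fragments.

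At Zc3h4 the flanking peaks lay mainly downstream of the main summit, in the direction of transcription. Replicate 1 had 7 to the right and 1 to the left, and replicate 2 had 6 and 4. Peaks 2312 bp to 3674 bp downstream in replicate 1, 4 in number with 13 to 17 fragments, were all taken up by the 5222 bp main peak of replicate 2. The run closed with the strongest flanking summit of all 4 windows, at chr7 position 16406206 in replicate 1 and 16406202 in replicate 2. It held 32 fragments (21.9 to 45.2) and 45 (32.8 to 60.2), with folds of 9.08 and 14.9, and reached 28.8% and 31.2% of the main summit. This summit was 6623 bp and 6619 bp inside the gene. The remainder of the gene body was nearly empty: replicate 1 had no peak beyond it, and replicate 2 had 1 peak of 22 fragments (13.8 to 33.3).

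At Acin1 the flanking peaks were split about evenly around the start, 5 to the left and 4 to the right in replicate 1, 8 and 9 in replicate 2. The main peak of replicate 2 spanned 5720 bp and overlapped 7 peaks of replicate 1. Background differed between single summits: in replicate 2 the peaks at 54683267 and 54683329 had 16 and 19 fragments over backgrounds of 4.84 and 6.77, for folds of 2.91 and 2.57. The lowest flanking fold of replicate 1 at this locus, 3.03, came with a background of 5.27. Other left summits of replicate 2 had backgrounds from 2.09, the lowest of the list (as at 54680965), to 2.9, and a right summit had 3.87. Whether input signal shapes these calls was not tested.

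The internal start of Acin1 had a small peak of its own. Its summit was at chr14 position 54653714 in replicate 1 and 54653719 in replicate 2, 13 bp and 18 bp upstream of the annotated start at 54653701. It held 20 fragments in replicate 1 (12.2 to 30.9) and 36 in replicate 2 (25.2 to 49.8), with folds of 7.2 and 11.98. In replicate 2 it was the strongest flanking summit of the window, at 26.9% of the main one. Both of these summits lie in the second sequence printed above, at bases 238 and 233, and the 300-base window holds no TTCG or CGAA. In the 4 windows, the 2 places with a Deaf1 summit within 35 bp of a start in the promoter table were both at Acin1, and they differed several-fold in height.

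The replicates repeated the main summits closely and the flanking peaks less so. Of the 55 peaks of replicate 1, 53 (96.4%) overlapped a peak of replicate 2, beside 92.4% over the whole list. Of the 83 peaks of replicate 2, 30 (36.1%) overlapped a peak of replicate 1, beside 50.4% over the whole list. Peaks of the same locus are not independent, so no interval is given for these shares. The wide peaks of replicate 2 held many small ones of replicate 1: the 4 main peaks of replicate 2 alone overlapped 18 peaks of replicate 1, of which 14 were flanking peaks. With a reciprocal overlap of at least 50%, 29.1% of the replicate 1 peaks and 19.3% of the replicate 2 peaks were shared, beside 68.2% and 40.6% over the whole lists. Flanking peaks of replicate 2 that were shared had a median of 28 fragments (26 peaks), and unshared ones a median of 16 (53 peaks).

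Overlapping peaks were paired if each was the strongest overlap of the other by fold, which gave 27 pairs, 4 main and 23 flanking. Main summits were 0 to 31 bp apart and flanking summits a median of 31 bp, with 15 of 23 (65.2%) within 50 bp. Over all 1551 pairs of the lists the median distance was 12 bp and 89.7% were within 50 bp. The single flanking pair more than 500 bp apart, at 1164 bp, was the broad peak over the first part of Ski. Pairs are formed from called peaks only, so weak partners that missed the caller's threshold are not seen.

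All 23 flanking pairs had more fragments in replicate 2, with ratios from 1.06 to 1.82 (median 1.5), as the plot of paired summits shows. For the 4 main summits the ratios were 1.06 to 1.4 (median 1.25), and for all 1551 pairs the median was 1.31. A higher pileup in replicate 2 was the rule in the whole lists too, at 91.6% of pairs, so the direction was that of the lists. The fold enrichment was also higher in replicate 2 at all 23 flanking pairs, beside 65.2% of all pairs. The lowest background in the lists was 1.80 fragments in replicate 1 and 2.09 in replicate 2. In 27 of 27 window pairs the counting intervals of the replicates overlapped. Such overlap does not show that the counts were equal, and all 27 were higher in replicate 2.

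**Figure D3:**
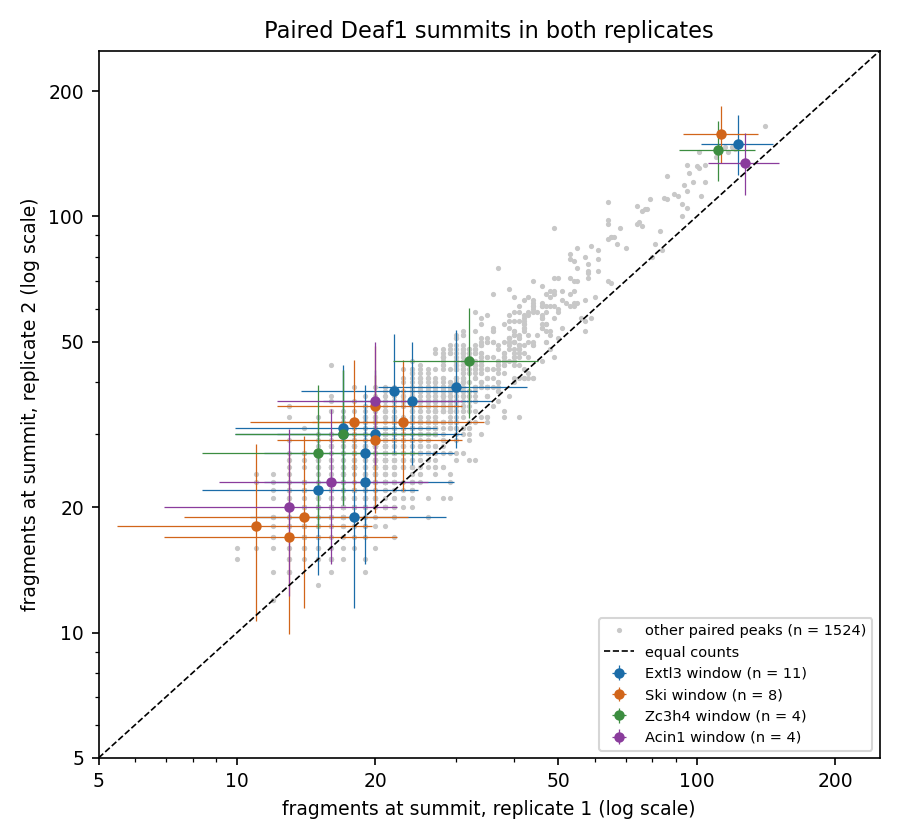
Fragments at paired Deaf1 summits in replicate 1 (horizontal, log scale) and replicate 2 (vertical, log scale). Coloured points are pairs of the 4 windows with 95% exact Poisson intervals, grey points the other pairs of the lists, and the dashed line marks equal counts. The 4 main summits lie at the upper right and all 27 window pairs lie above the line.

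In the combined list these loci scored low. That list gives each region an irreproducible discovery rate (IDR), a measure of how poorly its rank repeats from one replicate to the other, and a score of at least 540 stands for an IDR of at most 0.05. The score is 1 value for the pair, with no error. Of the 27 window regions, 5 (18.5%) reached it, beside 39.2% of all 1550 regions. None of the 4 main regions did: the scores were 190 at Extl3, 200 at Ski, 121 at Zc3h4 and 121 at Acin1, and 121 is the lowest of the list. The 5 that passed were all flanking regions, 3 at Extl3 (scores 686, 570 and 600), 1 at Ski (665) and 1 at Zc3h4 (767), and Acin1 had none, its internal start reaching 486. The strongest of them by fold was the Zc3h4 region at chr7:16406071-16406422, with folds of 9.08 in replicate 1 and 14.9 in replicate 2.

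The number of peaks joined in a region went along with its score. The main regions joined 3, 3, 5 and 7 peaks of replicate 1 at Extl3, Ski, Zc3h4 and Acin1, each with 1 peak of replicate 2. Regions with several peaks of a replicate made up 12 of the 27 (44.4%), beside 6.84% of the whole list. Of these 12, 0 reached a score of 540, and of the 15 with 1 peak in each replicate 5 did (33.3%). In the whole list the shares were 4.72% of 106 and 41.8% of 1444.

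The fifth of the strongest loci gives a contrast. At Tada1, which encodes a subunit of the SAGA coactivator complex, the main peak held 141 fragments in replicate 1 (119 to 166) and 165 in replicate 2 (141 to 192). Its widths were nearly equal, 3702 bp and 3755 bp, a ratio of 1.01, where the 4 genes had ratios of 1.5 to 1.89. It was 1 peak in each replicate, and its region scored 845. Flanking peaks were present there as well, 4 in replicate 1 and 16 in replicate 2, of which 3 and 8 were within 5 kb of the main summit.

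Other strong summits were less crowded on the median, but the 4 genes did not stand alone. Within 5 kb of the main summit there were 7 other summits at Extl3, 12 at Ski, 4 at Zc3h4 and 7 at Acin1 in replicate 1, and 10, 10, 5 and 8 in replicate 2. The 26 other peaks among the 30 strongest of each list had a median of 3 (0 to 12) in replicate 1 and 5 (1 to 10) in replicate 2. Ski had the highest number in both replicates, tied with at least 1 other peak in each, while Zc3h4 ranked 14th and 13th and lay near the middle. The plot of neighbouring summits shows this spread.

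**Figure D4:**
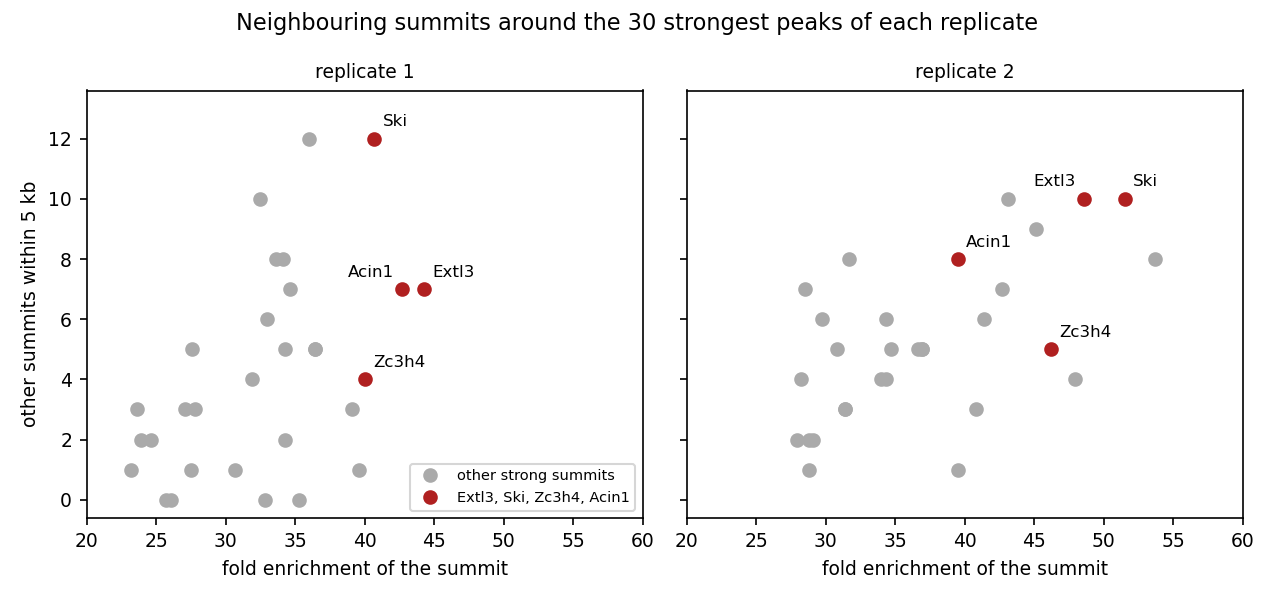
Number of other summits within 5 kb (vertical) against fold enrichment (horizontal) for the 30 strongest peaks of replicate 1 (left) and replicate 2 (right). Red points are the main summits of the 4 genes and grey points the other 26, some of which coincide. Ski has 12 neighbours in replicate 1 and 10 in replicate 2, and Zc3h4 has 4 and 5.

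Relative to gene ends, the windows differed from the lists as a whole. Of the window summits, 8 of 55 (14.5%) in replicate 1 and 11 of 83 (13.3%) in replicate 2 lay at most 1 kb from a protein-coding gene's end, beside 74.1% and 68.5% in the whole lists. Inside the spans of the 4 genes lay 42 of 55 and 56 of 83 summits. Of the 4 main summits, 3 were within 1 kb of a gene end in both replicates and only that of Extl3 was not. The windows were drawn around whole genes with 20 kb added, which by itself brings in sites away from ends.

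Genes of families, complexes and pathways related to the 4 genes, here called partner genes, were looked up in lists written from textbook knowledge. A partner gene in this sense need not encode a protein that binds 1 of the 4 proteins. Besides the 4 genes themselves, 8 of 55 partner genes (14.5%) had a combined region within 1 kb of a gene end, beside 6.99% of 21887 protein-coding genes. With the peaks of single replicates the counts were 9 of 55 (16.4%, beside 7.53% of all genes) in replicate 1 and 13 of 55 (23.6%, beside 11.2%) in replicate 2. No test was made of these lists, which were written with earlier results of these data in view. Among 13 genes of the restrictor and of transcription termination there were 4. They were Ncbp2, the small subunit of the nuclear cap-binding complex (44 fragments in replicate 1 and 49 in replicate 2), Zfc3h1, which directs RNA to the exosome (36 and 39), Zc3h18, which binds the cap-binding complex (23 and 36), and Cpsf3, the endonuclease of pre-mRNA 3′ end formation (30 and 30). The Cpsf3 region was closer to an end of Itgb1bp1 (50 bp against 69 bp).

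The list around Acin1 held 11 other genes, of the ASAP, PSAP and exon junction complexes and of splicing factors, and among them there were 3. Eif4a3, the helicase of the exon junction complex, had 44 and 59 fragments, Rnps1, which joins Acin1 in the ASAP complex, 25 and 26, and Magoh, a core subunit of the exon junction complex, 24 and 26. Of 14 genes of the exostosin family and heparan sulfate synthesis there was 1, B3gat3, which completes the linker on which the chain is built (29 and 36). Of 17 SMAD pathway genes and corepressors around Ski there were 0. All 8 regions had fewer fragments than the 4 main summits, at most 59 against at least 111.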

How the data were processed

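Deaf1 ChIP libraries (2) and inputs (2) were grouped by their titles. BWA 0.7.17-r1198, MACS2 2.1.2 and build mm10 are named, without settings, per the submitters' processing notes; duplicate removal is not given in the sources used here. The deposited peak lists give the authors' fold enrichment (a ratio at the summit) and −log10 p and q. The deposited combined list gives the authors' score, from which the IDR was computed as 2 to the power of −score/125; its 6 unnamed columns for single samples were not used. Pileup k and background were recovered as fold = (k + 1)/(background + 1) with p the Poisson probability of more than k, and 100% of peaks were fitted within 1e-04. Of 1852 and 3120 simulated summits, 100% were returned exactly. These were made with the same formula, so they check its inversion and not the formula itself. Depth in reads is unknown. Gene spans and starts came from RefSeq GRCm38.p6 tables, the same assembly as mm10. Positions are 1-based. Named genes were the 4 members, Tada1, genes with an end within 1 kb of a window peak, and partner genes with a region at an end. Pik3r2, Itgb1bp1 and the noncoding Gm52119 fall outside that rule and were named after their values were seen. The members and lists were chosen with earlier results of these data known. The 5 kb neighbourhood, the 30 strongest peaks, the 50 bp summit distance, the split of combined regions by their number of peaks and the printed stretches were chosen after seeing the peaks. Alternatives covered flanks, gaps, q, overlap, score and distance. Python 3.11.15, numpy 2.4.6, pandas 2.3.3 and scipy 1.17.1 were used.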

Additional observations from a re-analysis of the deposited data

How the results depend on the processing

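Requiring −log10 q of at least 5 lowered the mean number of window peaks per replicate from 69 to 43.5 and that of the 4 runs from 46.5 to 22. The share of replicate 1 window peaks found in replicate 2 rose from 96.4% to 100% (30 of 30). The replicate 2 share fell from 36.1% to 33.3% (19 of 57). Shares over the whole lists at this q are not given here. A reciprocal overlap of at least 50% lowered the replicate 1 share to 29.1% and the replicate 2 share from 36.1% to 19.3%. Leaving out either replicate gave 55 to 83 window peaks. Flanks of 5 and 50 kb (61 and 75.5 peaks) and gaps of 1 and 5 kb (38 and 50.5) stayed within 1.5 times. At a score of at least 830, 0 window regions were left of 5, and the share of all combined regions at that score is not given here. Partner genes with a region numbered 5 at a score of at least 540 (9.09%, beside 3.13% of all coding genes), 9 with all peaks of replicate 1 and 13 with all peaks of replicate 2. They stayed at 8 (14.5%) at 500 bp, 5 kb and over whole spans, where the share of all coding genes was 6.53%, 8.77% and 7.68%. The lowest rank of any main summit in its list was 11 by fold, 11 by pileup and 10 by −log10 p, each time that of Acin1 in replicate 2. For single loci, 10 of 16 counts moved by over 1.5 times under the stricter q, 3 of 8 with gaps of 1 kb and none of 8 with gaps of 5 kb. Counting summits within 2 kb or 10 kb of the main one, chosen after seeing the data, gave 6 and 44 in place of 31.5. The causes were not tested. No paired analysis was possible because the inputs have no values of their own here. Flanking summits of 11 to 45 fragments have wide counting intervals, which limits comparisons between single peaks.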

Other observations

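Neighbouring genes in the windows had small summits of their own. Sae1, which encodes a subunit of the SUMO-activating enzyme, had a peak at its upper end 11992 bp from the main Zc3h4 summit in replicate 1. It held 15 fragments in replicate 1 (8.4 to 24.7, exact Poisson) and 27 in replicate 2 (17.8 to 39.3), with folds of 2.97 and 9.07 over backgrounds of 4.39 and 2.09. Its summits were 54 bp and 68 bp from that end. The gene 1700123O20Rik overlaps the main Acin1 start, and a summit of 16 fragments in replicate 1 and 23 in replicate 2 lay 123 bp and 271 bp from its upper end. Its annotated start, at 54686171 on the plus strand, was inside the main Acin1 peak in both replicates, 824 bp and 793 bp from the main summit. At Gm29776 a summit 45 bp from the lower end was called in replicate 2 only, with 14 fragments (7.65 to 23.5).

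In replicate 2 the Ski gene body had 3 summits within about 1 kb of each other, 48651 bp to 49644 bp from the main summit, with 32, 19 and 28 fragments. Only the first of them overlapped a peak of replicate 1. Another replicate 2 summit with no overlap, 3825 bp to the left of the main Zc3h4 summit, held 30 fragments (20.2 to 42.8) and a fold of 10.0. A summit 12205 bp to the right of the main Ski summit had the same fragment number and fold, and these 2 had the highest fold among the 53 window peaks of replicate 2 that were not shared.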
